A study of Mus musculus with 4 samples.

Results

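The genes described here encode the enzymes that make asparagine, glutamine, serine and proline, carry one-carbon units on folate, run the methionine cycle and transsulfuration, and move amino groups to pyruvate and to the keto acids of branched-chain amino acids. They are 29 genes taken by symbol from the 55335 genes of the count table, all 29 were found, and all 29 passed the filter on low counts. RNA-seq was performed on AB2.2, a mouse ESC line kept on MEF feeders in medium with 15% serum, 1000 U/ml LIF, 3 μM of the GSK3 inhibitor CHIR99021 and 1 μM of the MEK inhibitor PD0325901, in the control and the treated cells alike. There were 2 control libraries and 2 libraries of cells that received 50 mM lactate for 24 h. The libraries held 18067562 and 19077885 gene counts in control and 18542554 and 18948861 with lactate. The labels do not say whether libraries of a group came from separate cultures, so p-values measure only the spread between these libraries, which may be technical. A single line was used, and feeder RNA can be part of each bulk library.

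Serine and glycine feed one-carbon units into the folate cycle, which exists as 2 parallel sets of enzymes. The mitochondrial set oxidises serine and exports formate, and the cytosolic set uses those units for purine, thymidylate and methionine synthesis. Proline and asparagine are made from glutamate and aspartate, and many enzymes of these routes are known targets of ATF4, the transcription factor of the amino acid response. Whether an enzyme works in the mitochondrion or the cytosol is textbook knowledge here and was not measured.

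Lactate supplementation upregulated 6 of the 29 genes (20.7%) and downregulated none, where a call needed a change over 2-fold and an edgeR adjusted p-value below 0.05. Over all 18661 genes tested, 103 (0.552%) were upregulated and 65 (0.348%) were downregulated, so the share of upregulated genes was above that background, which is a description and was not tested for the list. The 6 genes were Mthfd2 and Aldh1l2 of the mitochondrial folate arm, Aldh18a1 and Pycr1 of proline synthesis, the alanine transaminase gene Gpt2, and Pck2, the mitochondrial phosphoenolpyruvate carboxykinase. All 6 encode mitochondrial enzymes. Of the 13 genes for mitochondrial enzymes 6 were upregulated, with a median log2 fold change of 0.43, and of the 16 for cytosolic enzymes none was, with a median of 0.02.

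Signs were mixed over the whole set. Log2 fold changes were above 0 for 16 genes and below 0 for 13, and their median was 0.02, beside 0.01 over all genes tested. In CPM, the gene's normalized share of its library's counts, the lower lactate library exceeded the higher control library for 13 genes (44.8%), which held for 27.0% of all genes tested. The reverse order was seen for 7 genes (24.1%), beside 25.9% of all genes tested, and the groups overlapped for 9. At an unadjusted p-value under 0.05, 11 of the 29 genes (37.9%) were higher and 5 (17.2%) were lower (edgeR), beside 11.7% and 11.4% of all genes tested. DESeq2 called 5 of the 6 genes and the RSEM expected counts called 4, neither called any of the 29 lower, and limma-trend on log2(FPKM + 1) called 0 genes of the whole table. The 29 genes took 0.352% and 0.382% of the gene counts of control cells and 0.459% and 0.4996% of those of lactate cells. In a bulk library, fewer cells of a type and less RNA per cell cannot be told apart.

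**Figure D1:**
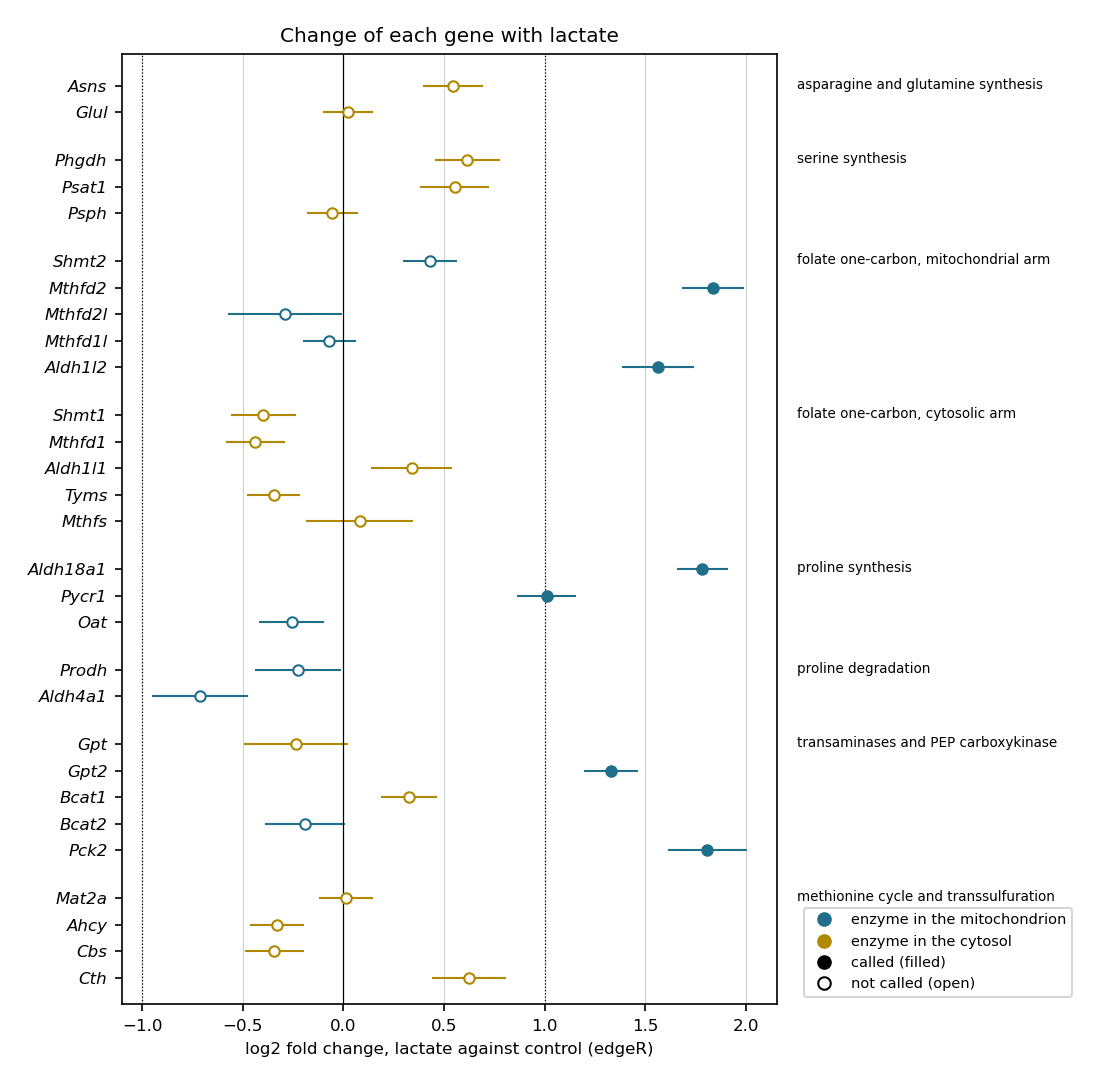
Log2 fold change of lactate against control for the 29 genes, grouped by role, with bars of 1 standard error from edgeR (2 libraries a group). Filled points passed the test, dotted lines mark a 2-fold change, and the 6 filled points all belong to genes for mitochondrial enzymes.

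Per length, the highest of these genes in control cells was Asns, with a mean FPKM of 376, followed by the cytosolic branched-chain transaminase Bcat1 at 304 and Mthfd1 at 180. The lowest were Mthfd2l at 1.39 and Aldh1l2 at 1.97. In this order of the 29 genes in control cells, the 6 upregulated genes lay between rank 14 for Mthfd2 (34.5 FPKM) and rank 28 for Aldh1l2.

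**Figure D2:**
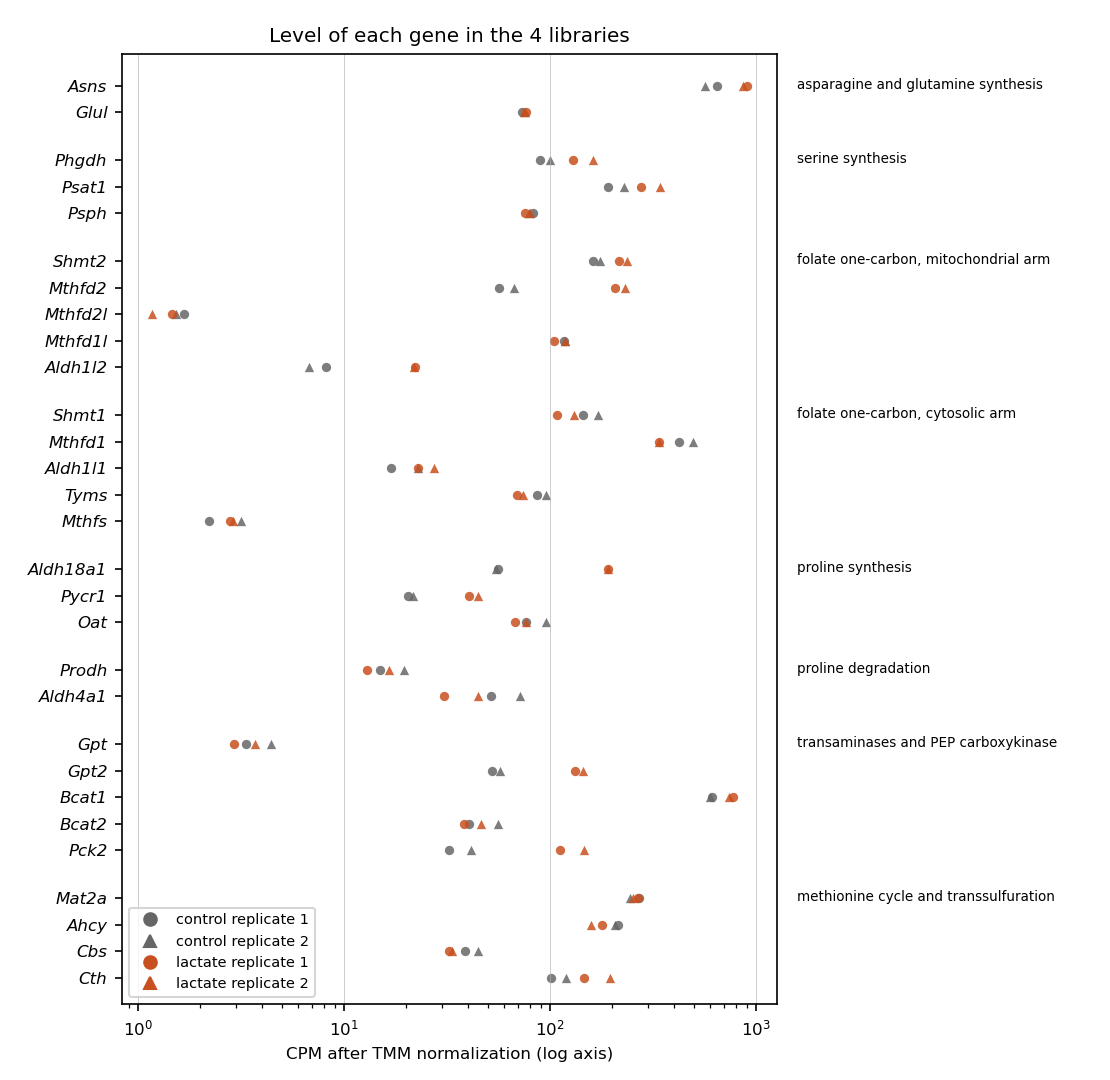
CPM of each of the 29 genes in the 4 libraries on a log axis, grouped by role, with 1 point per library. For Mthfd2, Aldh18a1, Gpt2 and Pck2 both lactate points stand clear of both control points, while for most genes the 4 points lie close together.

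In the mitochondrial folate arm, Mthfd2, the bifunctional dehydrogenase and cyclohydrolase that oxidises methylene-tetrahydrofolate, had 56.3 and 66.8 CPM in control and 207 and 232 CPM with lactate. The lactate libraries were far above both control libraries (log2 fold change 1.83 ± 0.15 (SE), adjusted p = 0.0312, edgeR). The gene lies on chromosome 6 of GRCm38 from 83305691 to 83325908, on the minus strand. Aldh1l2, which oxidises formyl-tetrahydrofolate to carbon dioxide in the mitochondrion, had 8.15 and 6.75 CPM in control and 22.2 and 21.8 CPM with lactate. The groups were again well apart (1.56 ± 0.18, adjusted p = 0.0396, edgeR). Of its exonic bases, 14.1% are shared with D10Wsu102e on the opposite strand, and whether the counting used strand is not stated. With the RSEM expected counts its change was nearly the same (1.54) and its adjusted p-value was 0.052.

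The other 3 genes of the mitochondrial arm did not pass the test. Shmt2, the serine hydroxymethyltransferase that starts this arm, had 162 and 174 CPM in control and 216 and 237 CPM with lactate (0.43 ± 0.13, adjusted p = 0.136, edgeR), with no overlap of the groups. Mthfd1l, which releases formate, had 117 and 118 CPM in control and 105 and 118 CPM with lactate, and the groups overlapped (-0.07 ± 0.13). Mthfd2l, the paralogue of Mthfd2, had only 1.68 and 1.53 CPM in control and 1.45 and 1.17 CPM with lactate, a level at which a change of this size was not detectable (-0.29 ± 0.28).

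In the cytosolic folate arm, no gene passed the test in either direction. Mthfd1, the trifunctional enzyme that takes up formate and interconverts folate forms, had 421 and 494 CPM in control and 336 and 339 CPM with lactate (-0.44 ± 0.15, adjusted p = 0.152, edgeR). Shmt1, the cytosolic serine hydroxymethyltransferase, had 144 and 171 CPM in control and 109 and 130 CPM with lactate (-0.40 ± 0.16, adjusted p = 0.208). For both genes the lactate libraries were below the control libraries in CPM, without overlap. The FPKM of Shmt1 overlapped (77.6 and 106.09 in control, 52.93 and 79.68 with lactate). Aldh1l1, the cytosolic counterpart of Aldh1l2, had 16.9 and 22.9 CPM in control and 22.97 and 27.4 CPM with lactate, where the lower lactate library barely exceeded the higher control library (0.34 ± 0.20, adjusted p = 0.370). Its change was 0.12 without control replicate 1, 0.57 without control replicate 2 and 0.20 without lactate replicate 2, and its FPKM overlapped (8.62 and 8.63 in control, 8.23 and 10.14 with lactate). Tyms, thymidylate synthase, had a log2 fold change of -0.35 ± 0.13 (adjusted p = 0.187), and Mthfs, which recycles 5-formyl-tetrahydrofolate, had 0.08 ± 0.27 from 2.20 to 3.16 CPM across the 4 libraries.

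Since the arms are compared within a library, their ratio needs no scaling between libraries. The summed FPKM of the 5 mitochondrial genes was 153 and 175 in control and 278 and 317 with lactate. That of Shmt1, Mthfd1 and Aldh1l1 was 259 and 303 in control and 196 and 219 with lactate. The ratio of the mitochondrial to the cytosolic sum was thus 0.591 and 0.578 in control and 1.42 and 1.45 with lactate, a difference of 1.29 on the log2 scale, with SDs of 0.02 in each group. The mitochondrial sum was the smaller of the pair in both control libraries and the larger in both lactate libraries. Tyms and Mthfs were not in this cytosolic sum. With them added it was 334 and 412 in control and 265 and 311 with lactate. The mitochondrial sum was then only just the larger in the lactate libraries. The crossing also rested on Mthfd2. With it left out, which was chosen after seeing the data, the mitochondrial sum was 123 and 136 in control and 160 and 185 with lactate, below the cytosolic sum in all 4 libraries, and the difference in log2 ratio was 0.85. With raw counts in place of FPKM, and all 5 mitochondrial genes kept, the difference was 1.10. It is a description of a score over chosen genes and was given no p-value.

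**Figure D3:**
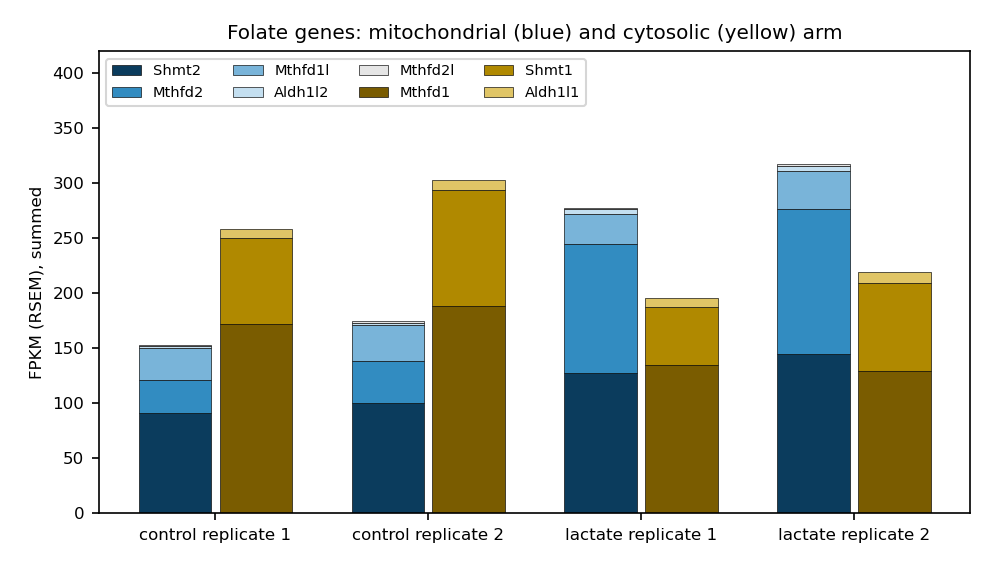
Summed FPKM of the mitochondrial arm (Shmt2, Mthfd2, Mthfd2l, Mthfd1l and Aldh1l2) and the cytosolic arm (Shmt1, Mthfd1 and Aldh1l1) of folate metabolism in each of the 4 libraries, as bars from 0 stacked by gene. The mitochondrial bar is below the cytosolic bar in the control libraries (153 against 259 in control 1) and above it in the lactate libraries (317 against 219 in lactate 2).

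Of 7 pairs of a mitochondrial enzyme and its cytosolic counterpart, the log2 ratio of FPKM + 0.1 was higher in both lactate libraries than in both control libraries for 5. The ratio of Mthfd2 to Mthfd1 moved most, from 0.177 and 0.206 in control to 0.871 and 1.02 with lactate, which is 2.31 on the log2 scale. Aldh1l2 to Aldh1l1 went from 0.265 and 0.210 to 0.601 and 0.493 (1.21 on the log2 scale). Gpt2 to Gpt went from 5.07 and 5.55 to 10.6 and 11.5 (1.05). In these 3 pairs the mean ratio more than doubled.

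Shmt2 to Shmt1 had ratios of 1.17 and 0.943 in control and 2.40 and 1.81 with lactate, a difference of 0.99 on the log2 scale. Mthfd1l to Mthfd1 had 0.169 and 0.173 in control and 0.206 and 0.265 with lactate, a smaller difference of 0.45. The size of this difference depended on the lactate library. The log2 ratio was -2.28 in lactate replicate 1 and -1.92 in lactate replicate 2, beside a control mean of -2.55. The groups overlapped for Mthfd2l to Mthfd1 (0.06) and for Bcat2 to Bcat1 (-0.58). Both depended on single libraries. Leaving out control replicate 1 moved the difference to -0.53 for Mthfd2l to Mthfd1 and to -1.16 for Bcat2 to Bcat1, and leaving out control replicate 2 moved it to 0.64 and 0.01. The overlap of Bcat2 to Bcat1 was seen in FPKM, where Bcat1 had 374 and 233 in control and 501 and 312 with lactate. Raw counts in control were 697 and 1058 for Bcat2 and 10545 and 11353 for Bcat1. With lactate they were 709 and 910 for Bcat2 and 14429 and 14577 for Bcat1. The ratio of these counts was lower in both lactate libraries than in both control libraries, opposite to the 5 pairs. For the 5 pairs without overlap the exact two-sided permutation test gave p = 0.333, which is the smallest that 2 libraries against 2 allow, and 0.467 after Benjamini-Hochberg adjustment over the 7 pairs. For the other pairs the exact p-values were 1 (Mthfd2l to Mthfd1, adjusted 1) and 0.667 (Bcat2 to Bcat1, adjusted 0.778), so no pair could pass 0.05.

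**Figure D4:**
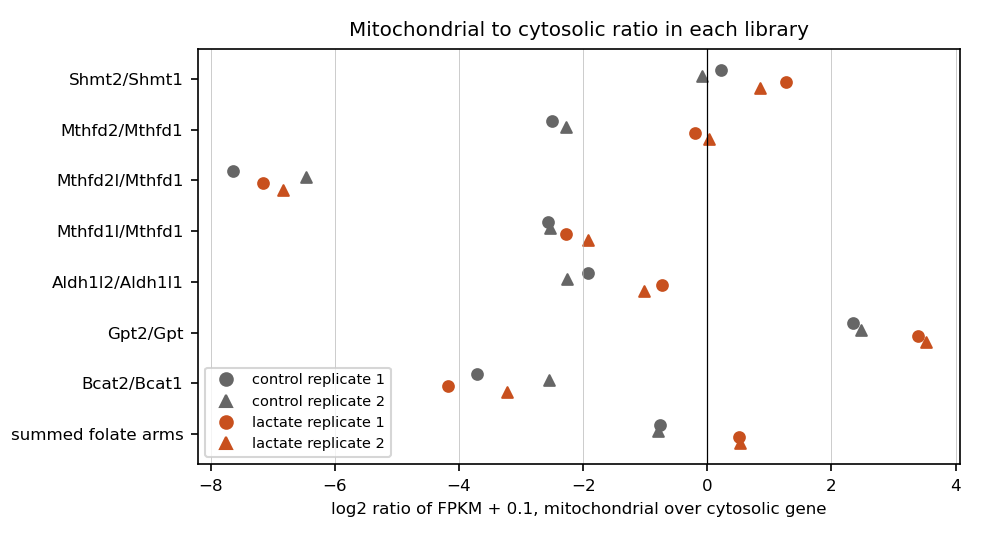
Ratio of FPKM of the mitochondrial to the cytosolic enzyme gene for 7 pairs on a log axis, with 1 point per library and a pseudocount of 0.1. Lactate points lie above control points in 5 pairs, most for Mthfd2 to Mthfd1, and overlap with them for Mthfd2l to Mthfd1 and Bcat2 to Bcat1.

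In proline synthesis, Aldh18a1, the pyrroline-5-carboxylate synthase that takes glutamate into the route, had 56.0 and 54.6 CPM in control and 190 CPM in each lactate library. Libraries of 1 group were nearly equal, and the groups were far apart (1.78 ± 0.13, adjusted p = 0.0195, edgeR). It lies on chromosome 19 from 40550257 to 40588463, on the minus strand. Pycr1, the reductase of the last step, had 20.4 and 21.7 CPM in control and 40.2 and 44.5 CPM with lactate, without overlap (1.01 ± 0.15, adjusted p = 0.0467). Its change sat at the 2-fold threshold. When a library is left out, its group has 1 library, which is assumed to vary as much as those of the other group. Without control replicate 1 the change was 0.95 (adjusted p = 0.136), without lactate replicate 2 it was 0.93, and in neither case was the gene called. Oat, which feeds ornithine carbon into pyrroline-5-carboxylate, had 76.1 and 95.1 CPM in control and 67.2 and 76.1 CPM with lactate, which overlapped (-0.26 ± 0.16).

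The genes of proline degradation did not pass the test. Prodh, proline dehydrogenase, had 14.9 and 19.6 CPM in control and 13.0 and 16.5 CPM with lactate, with overlap (-0.23 ± 0.21). Aldh4a1, which completes the oxidation to glutamate, had 51.8 and 71.4 CPM in control and 30.5 and 44.7 CPM with lactate (-0.71 ± 0.24, adjusted p = 0.154, edgeR). The lactate libraries were below the control libraries, and in both groups replicate 2 was the higher. Without lactate replicate 2 the gene was called lower (-1.02, adjusted p = 0.00304), in a fit that takes its spread from the control libraries alone and calls 502 genes higher and 367 lower in all. Aldh4a1 shares 32.5% of its exonic bases with Gm21969 on the same strand, so its counts are uncertain.

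Of the transaminases, Gpt2, the mitochondrial alanine transaminase that converts pyruvate and glutamate to alanine and 2-oxoglutarate, had 52.5 and 57.2 CPM in control and 132 and 144 CPM with lactate. Both lactate libraries were more than 2-fold above either control library (1.33 ± 0.13, adjusted p = 0.0320, edgeR). Without control replicate 1 the change was 1.25, the adjusted p-value was 0.0607, and the call was lost. Its cytosolic counterpart Gpt was low, at 3.35 and 4.43 CPM in control and 2.90 and 3.70 CPM with lactate, with overlap (-0.24 ± 0.26). Bcat1, the cytosolic branched-chain transaminase, had 610 and 598 CPM in control and 776 and 739 CPM with lactate, apart but not past the test (0.33 ± 0.14, adjusted p = 0.224). Bcat2, its mitochondrial counterpart, had 40.3 and 55.8 CPM in control and 38.1 and 46.1 CPM with lactate, which overlapped (-0.19 ± 0.20).

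Pck2, which makes phosphoenolpyruvate from oxaloacetate in the mitochondrion, had 32.3 and 41.2 CPM in control and 112 and 146 CPM with lactate. The lower lactate library was still far above the higher control library (1.81 ± 0.20, adjusted p = 0.0346, edgeR). The gene lies on chromosome 14 from 55540266 to 55551242, on the plus strand. Mthfd2, Aldh1l2, Aldh18a1 and Pck2 were called whichever of the 4 libraries was left out, although the spread in each of these fits comes from 1 group only.

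Asparagine and serine synthesis had no gene past the test. Both lactate libraries were above both control libraries for 3 of the 5 genes, an order seen for 27.0% of all genes tested. Asns, asparagine synthetase, had 648 and 567 CPM in control and 906 and 865 CPM with lactate (0.54 ± 0.15, adjusted p = 0.110, edgeR). Phgdh, the first enzyme of serine synthesis from a glycolytic intermediate, had 89.2 and 100.4 CPM in control and 129 and 162 CPM with lactate (0.62 ± 0.16, adjusted p = 0.103). Psat1, the second enzyme, had 192 and 229 CPM in control and 275 and 343 CPM with lactate (0.55 ± 0.17, adjusted p = 0.136). For these 3 genes the groups did not overlap, and the changes stayed under 2-fold.

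Psph, the phosphatase of the last step of serine synthesis, had 82.2 and 78.8 CPM in control and 75.3 and 79.8 CPM with lactate, which overlapped (-0.05 ± 0.13). Its value depended on the counting, so its direction is uncertain. The RSEM expected counts gave 0.68, and they were 0.23 to 0.56 of the raw counts, beside a median ratio of 0.806 to 0.817 over all genes tested. It shares 10.4% of its exonic bases with Cct6a on the opposite strand, and the part of this overlap in the difference between the tables was not tested. Glul, glutamine synthetase, had 72.7 and 75.9 CPM in control and 76.4 and 74.6 CPM with lactate, which overlapped (0.02 ± 0.12).

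In the methionine cycle and transsulfuration, none of 4 genes passed the test. Cth, cystathionine gamma-lyase, which releases cysteine, had 101 and 120 CPM in control and 145 and 195 CPM with lactate (0.62 ± 0.19, adjusted p = 0.127, edgeR), without overlap. Cbs, the enzyme before it, had 38.7 and 44.6 CPM in control and 32.4 and 33.3 CPM with lactate (-0.34 ± 0.14, adjusted p = 0.225), but its FPKM was 15.2 and 20.3 in control and 24.0 and 17.9 with lactate, so its direction depended on the table. Ahcy, which hydrolyses S-adenosylhomocysteine, had 214 and 208 CPM in control and 178 and 158 CPM with lactate (-0.33 ± 0.13, adjusted p = 0.214). Mat2a, which makes S-adenosylmethionine, had 245 to 270 CPM across the 4 libraries with overlap (0.01 ± 0.13).

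The promoters of the upregulated genes were searched for TGATGNAA, the core letters of the element that ATF4 binds with C/EBP factors, on both strands of the RefSeq windows on GRCm38.p6 from 250 bases before to 50 bases after the start. Of the 29 genes, 26 had a window in the table and 3 of these (11.5%) held the letters, beside 4.51% of all genes with a window and 2.76% of those tested. The 3 genes were Asns, Pycr1 and Pck2, of which Pycr1 and Pck2 are among the 5 upregulated genes with a window. Their windows are shown since these are the upregulated genes with a match, and that of Asns, chosen after its values were seen, since it holds the match nearest to the start. Capitals mark the match, which lies 103 bases upstream of the start in Pycr1, 103 in Pck2, where it reads on the reverse strand, and 23 in Asns.
Pycr1 promoter (chr11:120643699-120643998, minus strand): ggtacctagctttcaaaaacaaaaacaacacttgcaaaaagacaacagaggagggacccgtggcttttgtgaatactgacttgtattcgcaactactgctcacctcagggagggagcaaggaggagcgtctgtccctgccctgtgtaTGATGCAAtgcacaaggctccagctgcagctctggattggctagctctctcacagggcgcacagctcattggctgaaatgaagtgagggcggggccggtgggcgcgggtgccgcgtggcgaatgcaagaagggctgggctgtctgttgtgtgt
Pck2 promoter (chr14:55540016-55540315, plus strand): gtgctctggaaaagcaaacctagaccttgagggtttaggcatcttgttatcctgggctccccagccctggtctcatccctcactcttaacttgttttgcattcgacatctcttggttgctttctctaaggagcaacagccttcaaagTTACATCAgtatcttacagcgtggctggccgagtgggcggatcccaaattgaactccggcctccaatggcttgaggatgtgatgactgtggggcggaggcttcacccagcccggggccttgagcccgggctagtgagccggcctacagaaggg
Asns promoter (chr6:7693160-7693459, minus strand): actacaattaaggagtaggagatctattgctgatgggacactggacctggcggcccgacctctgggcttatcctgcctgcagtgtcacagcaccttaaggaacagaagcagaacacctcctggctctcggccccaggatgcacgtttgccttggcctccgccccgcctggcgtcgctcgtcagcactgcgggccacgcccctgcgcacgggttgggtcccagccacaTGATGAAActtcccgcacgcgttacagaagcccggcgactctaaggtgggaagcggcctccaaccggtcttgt

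A match says only that the letters are in the window, and no binding was measured here.

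Other genes of these pathways, taken from lists beside the 29, mostly did not pass the test. Of 64 such genes in folate, serine and glycine, proline and ornithine, asparagine, glutamate, alanine and branched-chain amino acid, and methionine and cysteine metabolism, 56 were tested and 1 was upregulated (1.79%, beside 0.552% of all genes tested). It was Cdo1, cysteine dioxygenase, with 25.4 and 22.03 CPM in control and 51.4 and 46.9 CPM with lactate (1.05 ± 0.15, adjusted p = 0.0467, edgeR). Of these 56 genes, both lactate libraries were above both control libraries for 24 (42.9%, beside 27.0% of all genes tested) and below for 15 (26.8%, beside 25.9%).

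Among the other folate genes, where 12 of 13 were tested and none was called, those with small p-values included Fpgs, which adds glutamates to folate (log2 fold change -0.44), and Mthfsd (0.54). For serine and glycine the smallest p-values belonged to Sptlc1 (0.50), a subunit of the enzyme that joins serine to a fatty acid, Gldc (0.42) of the glycine cleavage system, and Sfxn3 (-0.50). For proline and ornithine they were the dipeptidase gene Pepd (-0.70) and the collagen prolyl hydroxylases P4ha1 (-0.42) and P4ha2 (-0.41). For asparagine, aspartate, glutamate, alanine and branched-chain amino acids they were the glutaminase Gls2 (46.1 and 47.0 CPM in control, 26.3 and 26.5 CPM with lactate, -0.82 ± 0.13, adjusted p = 0.0520), Bckdha (-0.50) and Asnsd1 (0.33). None of these genes passed the test. The lactate and control libraries did not overlap for any of them, but genes picked by small p-values tend to be such genes. Over all genes tested, 27.0% had both lactate libraries above both control libraries and 25.9% had them below.

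Of 12 genes of the ATF4 axis, 7 were upregulated (58.3%, beside 0.552% of all genes tested). This list was chosen with earlier results of these data known, so the share is a description and was not tested. Atf4 itself had 96.97 and 121 CPM in control and 180 and 256 CPM with lactate, without overlap, and did not pass (1.00 ± 0.21, adjusted p = 0.0688, edgeR). The 7 were Ddit3 (1.33), Trib3 (2.13), Chac1 (4.10), Atf3 (2.49), Nupr1 (2.18), and the amino acid transporter genes Slc7a11 (3.20) and Slc7a5 (1.156). The rest, named beyond the rule so that all 12 are given, were not called. They were Cebpb (0.86), Sesn2 (0.74), Ddit4 (0.49) and Atf5 (0.13), and the groups overlapped for Ddit4 and Atf5.

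Markers of the ESCs and of the feeder cells in the dish were read from the same fit. All 10 ESC markers (Pou5f1, Nanog, Sox2, Klf4, Esrrb, Zfp42, Tfcp2l1, Tbx3, Utf1 and Dppa5a) passed the filter and none was called. Their median log2 fold change was 0.22, and their sum was 5516 and 5945 CPM in control and 6057 and 6800 CPM with lactate. At an unadjusted p-value under 0.05 (edgeR), 4 were higher (40%) and 1 was lower (10%), beside 11.7% and 11.4% of all genes tested. These were Sox2 (0.56), Zfp42 (0.52), Tbx3 (0.43) and Klf4 (0.39), and Utf1 (-0.54). All 18 feeder fibroblast markers passed the filter, none was at 0 and none was called, with a median of 0.01 and a sum of 557 and 779 CPM in control and 545 and 616 CPM with lactate. Per length the most abundant was Col1a1, at 194 and 294 CPM in control and 199 and 230 CPM with lactate. Single markers went both ways, as Pdgfra (0.99 ± 0.24), Pdgfrb (0.56 ± 0.15), Col3a1 (-0.90 ± 0.24) and Prrx1 (-0.57 ± 0.17) had unadjusted p-values under 0.05 without passing the test, and these 4 were chosen after their values were seen. The feeder sum was highest in control replicate 2, and its part in the values of the 29 genes was not tested.

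**Figure D5:**
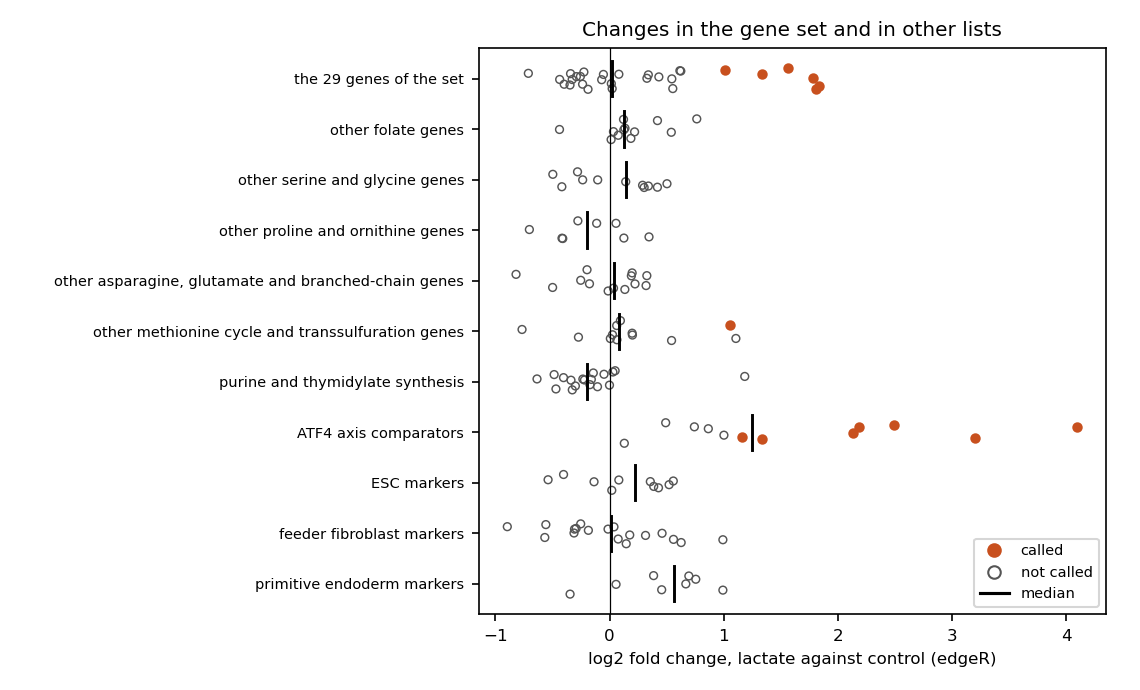
Log2 fold change of lactate against control for every tested gene of the 29, of the lists of other genes of these pathways, of purine and thymidylate synthesis, of the ATF4 axis, and of the ESC, feeder fibroblast and primitive endoderm markers, with 1 point per gene. Upregulated genes are found among the 29, among the ATF4 axis genes and, as Cdo1, in the methionine and cysteine list.

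Libraries also differed by replicate number. Mitochondrially encoded genes made up 5.48% (control) and 5.72% (lactate) of the gene counts in replicate 1, but 2.43% (control) and 2.82% (lactate) in replicate 2. In both groups replicate 2 was the higher for 20 of the 29 genes (69.0%), beside 38.9% of all genes tested. With the mitochondrial genes left out of the fit, 5 of the 6 genes were called, and Pycr1 was just under a 2-fold change.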

How the data were processed

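The authors trimmed reads with cutadapt 1.16, mapped them with STAR to mm10, and deposited raw counts per gene, which were made from exons of the GENCODE annotation. Which strand column was taken, and what counted the 1153 families of transposable elements in the same table, are not given in the sources used here. The TruSeq RNA libraries were also run through RSEM by the authors, who deposited expected counts, TPM and FPKM per library, with transcript lengths. TPM was not used. The RSEM expected counts summed to 15738305 and 16682829 in control and 16302874 and 16338519 with lactate.

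Counts of 18661 genes kept by filterByExpr were normalized by TMM (factors 0.959 and 0.996 in control, 1.004 and 1.04 with lactate) and tested in R 4.3.3 with the quasi-likelihood test of edgeR 4.0.16 (legacy form, no replicate term), with Benjamini-Hochberg adjustment over all genes tested. The common biological coefficient of variation was 15.9%. The standard error is the size of the log2 fold change divided by the square root of F. Alternatives used DESeq2 1.42.0, limma 3.58.1 on log2 FPKM with a pseudocount, other scalings and filters, the rounded RSEM expected counts, a replicate block and each library left out. Ratios used FPKM plus 0.1. The fit was also run on simulated data, and the outcome of that run is not reported here. Replicates were not copies of a single library, since a chi-square statistic of their counts was 32.2 (control) and 31.4 (lactate) for each degree of freedom, where sampling noise alone gives about 1.

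Positions come from GENCODE M21 on GRCm38, where all 29 identifiers were found and 28 had the same version. Of 2 identifiers for Gcat or Ddit3 the one with more reads was used. All 29 genes are named. From the lists of other pathway genes the called genes are named, or up to 3 with the smallest p where none was called. The rule also names Atf4, Ddit3, Trib3, Chac1, the ESC markers and the most abundant feeder marker. Atf3, Nupr1, Slc7a11 and Slc7a5 were named after their values were seen, and other genes beyond this rule are said to be so. A gene that the rule would name is not reported here. The genes and lists were chosen with earlier results of these data known.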

Additional observations from a re-analysis of the deposited data

How the results depend on the processing

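Across all genes, 103 were called higher and 65 lower, and DESeq2 called 190 and 168, no filter 482 and 325, the replicate block 761 and 395, RSEM expected counts 27 and 17, library totals alone 40 lower, and limma-trend on FPKM none in either direction with a pseudocount of 1 or 0.1 (0 of the 29 genes higher). Leaving out 1 library gave 45 to 502 higher and 39 to 367 lower. The lowest counts came without control replicate 1 and the highest without lactate replicate 2. The share of calls that were higher was 61.3%, and 73.0% with library totals alone, which also moved the median of all genes from 0.01 to 0.08. Of the 29 genes, 4 to 6 were called higher in every other alternative, and 0 to 1 lower when a library was left out. Same-numbered libraries deviated together (correlation 0.56 across genes). There are only 2 such pairs, no label names a shared batch, and the source of the shared deviation was not tested. With the block the same 6 of the 29 genes passed both thresholds. Without the fold threshold, 21 in place of 6 had an adjusted p-value under 0.05 (edgeR). Pycr1 was under 2-fold with DESeq2 (0.99), no filter (0.97), RSEM expected counts (0.90) and mitochondrial genes left out (0.998, chosen after seeing the data). Directions turned for genes near 0 and for genes whose tables differ. These were Glul (no filter -0.021, RSEM -0.018, limma -0.049 and -0.050, libraries left out -0.026 to 0.048), Psph (totals 0.014, RSEM 0.68, limma 0.69 and 0.71), Mthfd1l (limma 0.0043), Mthfs (RSEM -0.16, limma -0.15 and -0.18, libraries left out -0.17 to 0.37), Gpt (limma 0.20 and 0.26), Bcat2 (libraries left out -0.42 to 0.059), Mat2a (DESeq2 -0.0045, no filter -0.029, RSEM -0.0041, libraries left out -0.058 to 0.067) and Cbs (limma 0.23 and 0.24). The ratio of Aldh1l2 to Aldh1l1 changed by 0.93 with FPKM + 1, and with raw counts Gpt2 to Gpt changed by 1.56 and the summed arms by 1.10. In FPKM, the summed arms changed by 0.85 with Mthfd2 left out of the sum (chosen after seeing the data). The cause was not tested. Genes with few reads, such as Mthfd2l, allow no statement on changes under 2-fold.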

Other observations

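A list of 18 genes stood for purine and thymidylate synthesis, and none passed the test in either direction (edgeR). It also holds Cad and Umps of pyrimidine synthesis and leaves out Tyms, so it is no measure of one-carbon use. Log2 fold changes were below 0 for 15 of them, with a median of -0.20 beside 0.01 over all genes tested, and both lactate libraries were below both control libraries for 9 (50.0%, beside 25.9% of all genes tested). At an unadjusted p-value under 0.05, 3 were lower (16.7%) and 1 was higher (5.56%), beside 11.4% and 11.7% of all genes tested. Gart, which uses formyl-tetrahydrofolate in purine synthesis, had 406 and 515 CPM in control and 273 and 319 CPM with lactate (-0.64 ± 0.17, adjusted p = 0.110). Adsl, adenylosuccinate lyase, had 108 and 120 CPM in control and 78.7 and 83.9 CPM with lactate (-0.49 ± 0.13, adjusted p = 0.111). Adssl1, an adenylosuccinate synthase, went the other way from a low level, with 3.99 and 3.74 CPM in control and 8.45 and 9.12 CPM with lactate (1.18 ± 0.20, adjusted p = 0.0526).

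Of 10 primitive endoderm markers 8 were tested and none was called (edgeR), with a median log2 fold change of 0.56, beside 0.01 over all genes tested, and both lactate libraries above both control libraries for 6 (75.0%, beside 27.0%). The smallest p-values, for genes chosen after their values were seen, were those of Lama1, a laminin chain of basement membrane (116 and 137 CPM in control, 198 and 212 CPM with lactate, 0.69 ± 0.15, adjusted p = 0.0684), Pdgfra (0.99 ± 0.24, adjusted p = 0.0879), which is also among the feeder markers, and the transcription factor Gata4 (0.67 ± 0.23, adjusted p = 0.163). Sparc, the most abundant of these markers, went the other way without passing the test, with 334 and 350 CPM in control and 276 and 262 CPM with lactate (-0.35 ± 0.13, adjusted p = 0.187). The summed CPM of the list was 535 and 587 in control and 579 and 576 with lactate, and the groups overlapped. The part of these markers in the values of the 29 genes was not tested.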
